A study of Oryza sativa with 20 samples.

Results

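The first hour of feeding by the rice leaf folder Cnaphalocrocis medinalis was examined in 8 of the 20 RNA-seq libraries of the series, the 4 libraries of leaves fed on for 1 h and the 4 of unfed control leaves (0 h). The libraries were taken by their titles, and the comparison covered every gene whose identifier begins with OS, the loci of the rice annotation. Of 37830 such loci listed, 20343 reached an FPKM (fragments per kilobase of transcript, scaled to the size of the library) of at least 0.5 in at least 4 of the 20 libraries and were tested. The plants were Oryza sativa, strain Minghui 63, grown for 5 weeks. For the 1 h group, a single starved third-instar larva was enclosed in a small Parafilm bag on the second leaf from the top for the last hour of the experiment. Control leaves were put in the same kind of bag with no larva, and all leaves were cut at one time, so the groups differ in the length of feeding and not in the hour of harvest. Each library pooled leaves from 5 plants and is thus a mean over plants. Nitrogenous fertilizer was applied weekly, and the study names no other treatment of these plants.

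A chewing insect is known to trigger, within minutes, calcium signals, protein kinase cascades and the synthesis of jasmonic acid (JA) from fatty acids of the chloroplast membrane. Lipoxygenase (LOX), allene oxide synthase (AOS) and allene oxide cyclase (AOC) make the precursor OPDA in the chloroplast. The reductase OPR, the ligase OPCL and beta-oxidation enzymes then shorten it to JA in the peroxisome, and JAR joins JA to isoleucine. The conjugate JA-Ile causes JAZ repressor proteins to be degraded, which frees the transcription factor MYC2, and JAZ genes are themselves among the targets that JA switches on. The question of the 1 h samples is how much of this response is visible in the mRNA at the earliest time sampled.

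The deposited values carry identifiers without gene names. Names are therefore given to the 43 genes that the study pairs with an identifier in its text or its scheme of the JA pathway, and the other loci are described as counts. Of the 43 genes, 42 were tested, and the AOS gene Os03g0767000 was below the limit on low values. The list was drawn up by the study, and the choice of its JA genes may not be independent of these samples. It names the AOC and calcium sensor genes for a response at 1 h in these samples. Its MAP kinase and WRKY genes are named as upregulated by feeding. Shares of named genes set beside those of all loci are therefore no independent test. Genes that define leaf tissue carry no names in the values, so the labelled tissue was not checked against markers.

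Fragments on genes numbered from 20793589 to 21898370 in the 0 h libraries and from 17796510 to 20175841 in the 1 h libraries. Every fed library was thus shallower than every control. At 1 h, 416 of the 20343 loci were higher than at 0 h (2.04%) and 296 were lower (1.46%), each at an FDR (p after Benjamini-Hochberg adjustment) under 0.05 in limma-trend on log2(FPKM + 1). Over all 24058 identifiers tested it was 427 (1.77%) and 310 (1.29%), and among the 3715 that are not OS loci 11 (0.296%) and 14 (0.377%). The rises were larger than the falls, since 80 rises exceeded a log2 fold change of 1 (0.393% of loci) and 12 falls exceeded it in the other direction (0.059%). Past a log2 fold change of 2 there were 16 rises (0.0787%) and no fall. The median log2 fold change was 0.61 among the 416 loci that rose, -0.50 among the 296 that fell, and 0.01 over all loci tested. Because 1 was added to each FPKM before taking log2, the change of a gene near or under 1 FPKM is understated. In whole leaf pieces, fewer cells of a type cannot be told apart from less RNA per cell.

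**Figure D1:**
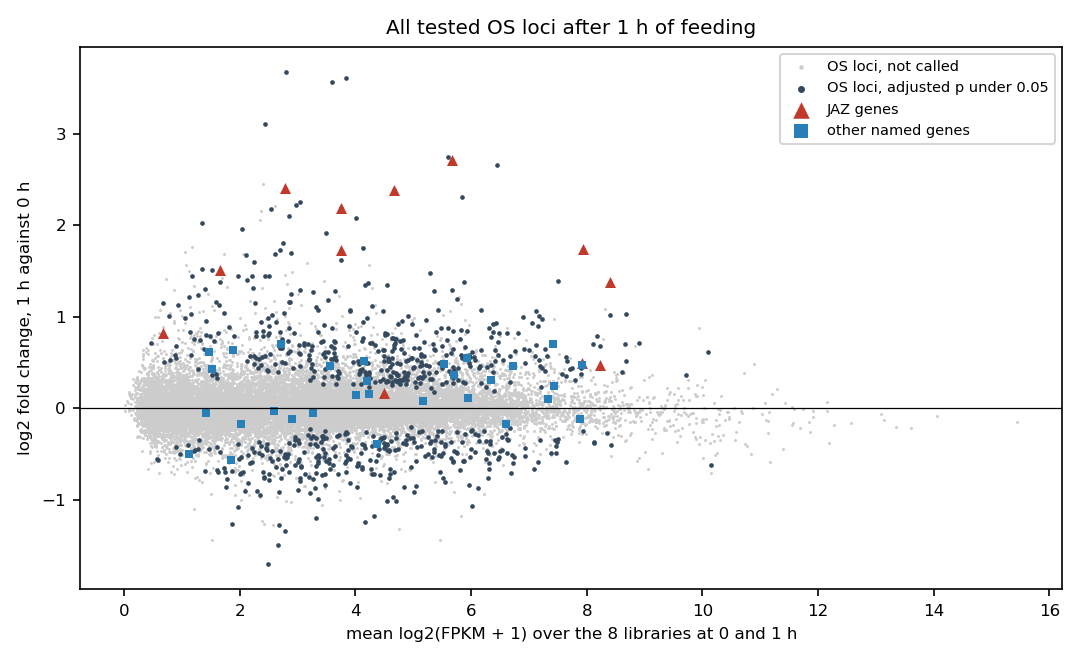
Log2 fold change at 1 h against 0 h for the 20343 tested OS loci (vertical axis) against mean log2(FPKM + 1) over the 8 libraries (horizontal axis). Dark points are the called loci, red triangles the 12 JAZ genes and blue squares the other 30 named genes. All JAZ triangles lie above 0, and the points with the largest changes are rises.

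The counts of called loci depended on single libraries. Rises numbered 271, 263 and 244 when control replicate 1, 2 or 3 was left out, and 236 when fed replicate 1 was. Falls numbered 119, 155 and 193 when control replicate 2, 3 or 4 was left out, and 137 and 131 when fed replicate 1 or 4 was. Without fed replicate 2 the counts went up, to 532 rises and 378 falls, from 416 and 296. In the fit of only the 8 libraries at 0 and 1 h, 142 falls were called. Under every one of the 15 alternatives together, 154 of the rises and 73 of the falls were called in the same direction.

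By chromosome, the share of tested loci that rose was between 1.08% on chromosome 12 and 2.39% on chromosome 3, and the share that fell between 0.955% on chromosome 11 and 1.89% on chromosome 6.

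Among the 42 named genes tested, 11 rose and none fell at 1 h in limma-trend at an FDR under 0.05, beside 2.04% and 1.46% of all loci. Another 14 had an unadjusted p under 0.05 and did not pass. In 19 of the 42, the fed libraries were all above the controls (6.59% of all loci tested), and in 3 all below (5.67%). Part of the list was named by the study for its response in these same libraries, so these counts are descriptions. JAZ genes accounted for 6 of the 11. The others were the AOC gene, an OPR gene, the OPCL gene, a JAR gene and a calmodulin gene.

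**Figure D2:**
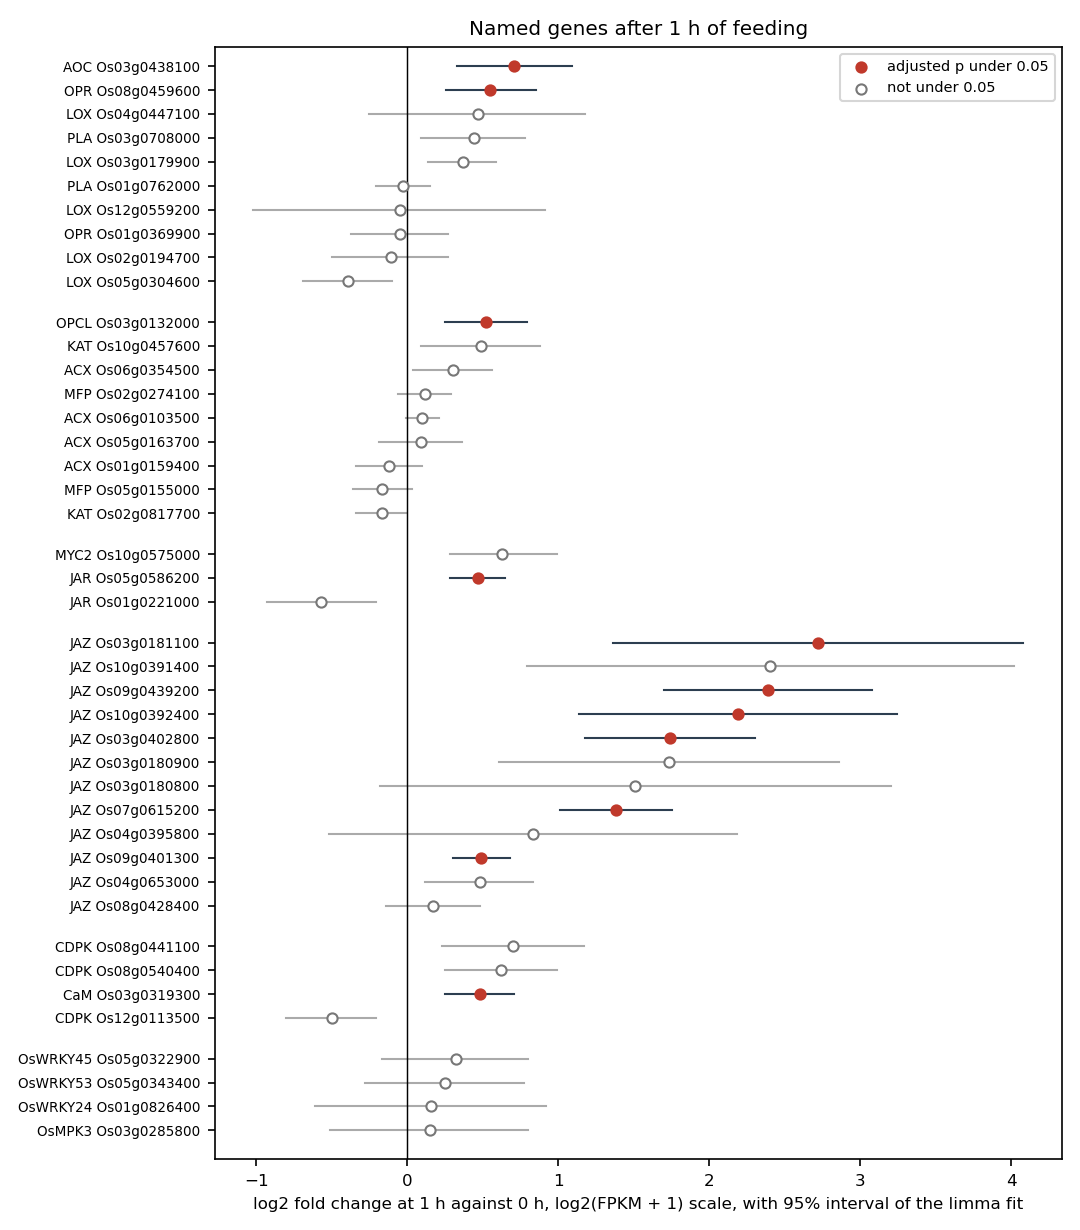
Log2 fold change at 1 h against 0 h of the 42 named genes tested, grouped by role, with the 95% interval of the limma fit as a line. Filled points have an FDR under 0.05. The largest changes are in the JAZ block, from 0.17 to 2.72, and the MAPK and WRKY block at the bottom lies between 0.15 and 0.32 with all intervals across 0.

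JAZ proteins repress JA-responsive transcription, and their genes showed the largest rises among the named genes. The median log2 fold change of the 12 JAZ genes was 1.62 at 1 h, against 0.01 over all loci tested, and all 12 were above 0. The test was passed by 6 of the 12, beside 2.04% of all loci called higher. In 9 of the 12 every 1 h library was above every 0 h library, beside 6.59% of all loci.

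Os09g0439200 had an FPKM of 8.04, 13.7, 9.70 and 9.74 in the 0 h libraries (replicates 1 to 4) and of 45.4, 69.4, 67.1 and 50.5 in the 1 h libraries. The groups were far apart, and no library of one group came near the other. Its log2 fold change was 2.39 (SE 0.33, limma FDR = 0.00068), a ratio of mean FPKM of 5.65, and it ranked number 8 among the 416 rises.

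Os07g0615200 was already abundant in unfed leaves, at 194, 196, 187 and 264 FPKM. After 1 h of feeding it reached 544, 595, 603 and 444 FPKM. The highest control was replicate 4 and the lowest fed library was also replicate 4, and still the groups did not overlap (log2 fold change 1.38, SE 0.18, limma FDR = 0.00037).

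The same held for Os03g0402800, with 111, 156, 112 and 162 FPKM at 0 h and 387, 550, 588 and 321 FPKM at 1 h. Its mean of 462 ± 128 FPKM (SD, n = 4) at 1 h was 3.41 times the mean of 135 ± 27.7 FPKM (SD, n = 4) at 0 h. The log2 fold change was 1.74 (SE 0.27, limma FDR = 0.0018).

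A small rise was measured for Os09g0401300. Its control libraries lay close together at 201, 202, 203 and 206 FPKM, and the fed ones were at 291, 311, 296 and 249 FPKM. The log2 fold change of 0.49 (SE 0.09) passed the test (limma FDR = 0.0064) and was among the smallest of the JAZ genes. The SD over 4 libraries was 2.10 FPKM at 0 h and 26.4 FPKM at 1 h. The calls for these 4 JAZ genes were kept under all 15 alternatives.

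Os03g0181100 had the highest log2 fold change of the named genes, 2.72 (SE 0.65, limma FDR = 0.028), and ranked number 6 among the 416 rises. Its 0 h libraries differed widely, with 6.55, 67.1, 9.44 and 27.1 FPKM, while the 1 h libraries had 106, 149, 158 and 111 FPKM. The spread lay in the controls, where replicates 2 and 4 were high. In Os10g0392400 the same pair of controls was high, with 3.18, 10.4, 2.62 and 7.94 FPKM at 0 h and 23.3, 25.3, 36.9 and 26.4 FPKM at 1 h (log2 fold change 2.19, SE 0.50, limma FDR = 0.022). Both calls were lost without certain libraries. That of Os03g0181100 had a limma FDR of 0.087 and 0.096 when control 1 or 3 was left out, of 0.059, 0.064 and 0.059 when fed library 1, 3 or 4 was left out, and of 0.077 in the fit of only the 8 libraries. That of Os10g0392400 had an FDR of 0.068 and 0.081 when control 1 or 3 was left out, of 0.059 and 0.053 when fed library 3 or 4 was left out, and of 0.055 in limma-voom on recovered fragments.

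Of the 6 JAZ genes that did not pass, 3 had 1 h libraries all above the 0 h libraries. Os04g0653000, one of the most abundant, was at 253, 263, 234 and 259 FPKM without feeding and at 350, 366, 402 and 293 FPKM with it (log2 fold change 0.48, SE 0.17, limma FDR = 0.14). Os03g0180900 had 5.07, 5.35, 4.62 and 12.4 FPKM at 0 h and 19.6, 24.0, 37.6 and 16.9 FPKM at 1 h (log2 fold change 1.73, SE 0.54, limma FDR = 0.091). Here the high control was replicate 4. In the fit of only the 8 libraries, Os03g0180900 passed (FDR = 0.041).

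Os04g0395800 was close to its limit of detection. It was counted with 3, 3, 0 and 10 fragments at 0 h and 10, 19, 41 and 14 fragments at 1 h, which is 0 to 0.505 FPKM and 0.539 to 2.51 FPKM. The log2 fold change of 0.83 had a 95% interval from -0.52 to 2.18 (limma FDR = 0.57).

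In Os10g0391400 a single control overlapped the fed leaves. Its 0 h libraries had 0.640, 10.9, 0.451 and 1.80 FPKM and its 1 h libraries 9.47, 22.1, 17.2 and 13.1 FPKM (log2 fold change 2.40, SE 0.77, limma FDR = 0.10). Without 0 h replicate 2, the high control, the log2 fold change was 3.07 and passed (FDR = 0.045). Os03g0180800 was low, with 0.232, 2.69, 0.450 and 0.898 FPKM at 0 h and 2.63, 7.38, 7.55 and 2.15 FPKM at 1 h, and its groups overlapped (log2 fold change 1.51, 95% interval -0.18 to 3.20, limma FDR = 0.36). Least changed was Os08g0428400, with 18.8 to 23.2 FPKM at 0 h and 21.7 to 24.4 FPKM at 1 h (log2 fold change 0.17, 95% interval -0.14 to 0.48, limma FDR = 0.62).

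**Figure D3:**
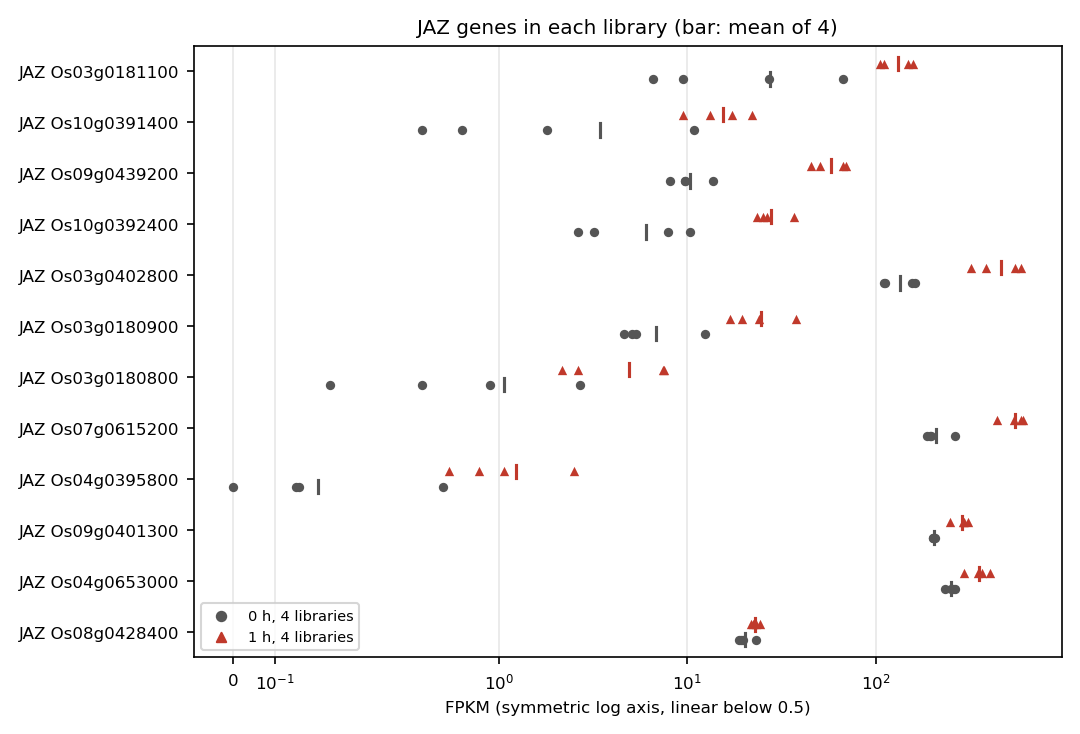
FPKM of the 12 JAZ genes in each 0 h library (grey circles) and each 1 h library (red triangles), with the mean of 4 as a bar, on an axis that is logarithmic above 0.5 and linear below. In 9 genes all triangles lie to the right of all circles. The circles of Os03g0181100, Os10g0391400 and Os03g0180800 are spread widely.

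The libraries of one group also differed from each other in the same order for many JAZ genes. Among the controls, replicate 2 was the highest for 6 JAZ genes and replicate 4 for the other 6, while replicates 1 and 3 were each the lowest for 6. Among the fed leaves, replicate 3 was the highest for 8 of 12 and replicate 4 the lowest for 7 of 12. As a median over the 12 genes, log2(FPKM + 1) relative to the 0 h mean was -0.27, 0.14, -0.25 and 0.24 in the controls and 1.44, 1.90, 2.16 and 1.17 in the fed libraries (replicates 1 to 4).

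Os03g0180800, Os03g0180900 and Os03g0181100 are consecutive JAZ loci in the order of the identifiers on chromosome 3. Their log2 fold changes were 1.51, 1.73 and 2.72. Tested loci next to them on either side, Os03g0180700 and Os03g0181500, had 0.10 (limma FDR = 0.52) and 0.12 (limma FDR = 0.73). How the authors' counting divided fragments between similar neighbours was not examined.

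The enzymes from PLA to OPR had smaller fold changes than most JAZ genes. PLA, a phospholipase that releases the fatty acid, LOX, AOS, AOC and OPR were represented by 11 genes, of which 10 were tested. Of these, 2 rose, beside 2.04% of all loci, and the median log2 fold change was 0.17. AOC (Os03g0438100), which closes the ring of OPDA, had 111, 141, 137 and 144 FPKM at 0 h and 193, 233.5, 233.5 and 211.5 FPKM at 1 h. The fed libraries were all above the controls, by a log2 fold change of 0.71 (SE 0.18, limma FDR = 0.039). The OPR gene Os08g0459600, for the reductase that acts on OPDA, had 43.5, 54.7, 49.3 and 50.9 FPKM at 0 h and 69.8, 75.4, 74.4 and 72.3 FPKM at 1 h (log2 fold change 0.55, SE 0.14, limma FDR = 0.039). Both calls were close to the threshold. Without any 1 of the 8 libraries, the FDR was 0.060 to 0.11 for AOC and 0.060 to 0.11 for Os08g0459600, and with no filter on low values it was 0.066 and 0.063. With a library left out, the log2 fold changes were 0.63 to 0.77 for AOC and 0.49 to 0.60 for Os08g0459600. Both calls were kept in the fit of only the 8 libraries (limma FDR = 0.015 and 0.013). They were also kept with a replicate block (limma FDR = 0.011 and 0.0082) and in limma-voom (FDR = 0.025 and 0.028).

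Lipoxygenases add oxygen to the fatty acid at the start of the pathway, and none of the 5 LOX genes passed the test at 1 h. Os03g0179900 came nearest among those above 0, with 43.2, 43.3, 47.0 and 46.2 FPKM at 0 h and 61.2, 62.9, 60.7 and 49.0 FPKM at 1 h. Replicate 4 stood below the other fed libraries and still above the controls (log2 fold change 0.37, SE 0.11, limma FDR = 0.072, and 0.039 without 1 h replicate 4). Os05g0304600 went the other way, with 21.7 to 23.6 FPKM at 0 h and 15.7 to 18.9 FPKM at 1 h and no overlap (log2 fold change -0.39, SE 0.14, limma FDR = 0.15, and 0.030 in the fit of only the 8 libraries).

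The most abundant LOX gene, Os02g0194700, was at 242, 241, 244 and 247 FPKM in the controls and at 205, 301, 207 and 201 FPKM in the fed leaves. Only 1 h replicate 2 was above the controls, and the other 3 fed libraries were below them. Os04g0447100 and Os12g0559200 had log2 fold changes of 0.47 and -0.05 with wide 95% intervals, from -0.25 to 1.18 and from -1.02 to 0.91.

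AOS Os03g0767000 was nearly absent from unfed leaves. Its fragments numbered 1, 1, 1 and 0 at 0 h and 5, 15, 6 and 2 at 1 h, or at most 0.0241 FPKM and at most 0.386 FPKM. Every fed library was above every control, and the gene was not tested.

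In the peroxisome, OPCL activates the OPDA derivative and the beta-oxidation enzymes ACX, MFP and KAT shorten its side chain. OPCL (Os03g0132000) was the single gene of these 9 that passed, beside 2.04% of all loci called higher. It had 11.9, 14.9, 12.8 and 15.8 FPKM at 0 h and 21.5, 20.2, 20.9 and 18.3 FPKM at 1 h (log2 fold change 0.52, SE 0.13, limma FDR = 0.036). The FDR was 0.051 to 0.11 without any 1 of the libraries other than 0 h replicate 4, and 0.056 with no filter on low values. It was 0.040 in the fit of only the 8 libraries, 0.026 with a replicate block and 0.028 in limma-voom. The KAT gene Os10g0457600 had 33.6, 39.6, 35.9 and 44.6 FPKM in the controls and 53.2, 52.1, 55.0 and 55.5 FPKM in the fed leaves, without overlap, but did not pass (log2 fold change 0.49, SE 0.19, limma FDR = 0.18, and 0.032 in the fit of only the 8 libraries).

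The 4 ACX genes had log2 fold changes from -0.12 to 0.30, none past the test. The most abundant of them, Os06g0103500, had a mean of 155 ± 6.60 FPKM (SD, n = 4) in the controls. The 95% interval of its log2 fold change was -0.01 to 0.21, so a mean rise above 0.21 lies outside that interval. The 2 MFP genes had 0.12 and -0.17, and the other KAT gene, Os02g0817700, had -0.17 (limma FDR = 0.27).

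JAR enzymes attach isoleucine to JA, and the pair of JAR genes had fold changes of opposite sign, of which the positive one passed. Os05g0586200 was at 87.4, 90.2, 88.1 and 91.8 FPKM at 0 h and at 120, 132, 119 and 125 FPKM at 1 h. Both groups were narrow and well apart (log2 fold change 0.47, SE 0.09, limma FDR = 0.0077), and the call was kept under all 15 alternatives. Os01g0221000 had 3.49, 3.51, 2.61 and 4.14 FPKM at 0 h and 1.44, 1.38, 2.33 and 3.00 FPKM at 1 h, with replicate 4 of the fed leaves inside the range of the controls (log2 fold change -0.57, SE 0.17, limma FDR = 0.079). Without that library it was -0.71 and passed (FDR = 0.031).

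MYC2 (Os10g0575000), the activator that JAZ proteins hold back, was measured at 2.00, 2.18, 1.71 and 1.97 FPKM at 0 h and 3.14, 3.36, 4.41 and 3.55 FPKM at 1 h. All fed libraries were above all controls, and the log2 fold change of 0.63 (SE 0.17) fell just short of the threshold (limma FDR = 0.051). It passed under 5 of the alternatives, with an FDR of 0.031 to 0.042, among them limma-voom on recovered fragments and median-of-ratios scaling.

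Calmodulin (CaM) and calcium-dependent protein kinases (CDPK) read calcium signals. The CaM gene Os03g0319300 rose from 186, 206, 205 and 216 FPKM to 319, 236, 261 and 329 FPKM (log2 fold change 0.48, SE 0.11, limma FDR = 0.023). Replicates 1 and 4 of the fed leaves were the highest. The call was lost when control 1, 2 or 3 was left out (FDR = 0.071, 0.059 and 0.058), when fed library 1 or 4 was (FDR = 0.090 and 0.084), and in the fit of only the 8 libraries (FDR = 0.079).

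None of the 3 CDPK genes passed. In each the groups did not overlap, which also held for 6.59% (higher) and 5.67% (lower) of all loci tested. The study had named these genes, like the CaM gene, for a response at 1 h in the same libraries. Os08g0441100 had 4.59, 3.96, 4.25 and 3.87 FPKM at 0 h and 5.69, 6.88, 7.93 and 9.56 FPKM at 1 h (log2 fold change 0.70, SE 0.22, limma FDR = 0.10). Os08g0540400 had 0.854, 1.53, 1.496 and 1.15 FPKM and then 2.03, 2.23, 2.41 and 3.16 FPKM (log2 fold change 0.62, SE 0.18, limma FDR = 0.067). Os12g0113500 lay lower in the fed leaves, at 0.610, 0.736, 1.07 and 0.901 FPKM against 1.18, 1.59, 1.94 and 1.67 FPKM (log2 fold change -0.50, SE 0.14, limma FDR = 0.062). For the latter pair limma-voom on recovered fragments gave calls, with log2 fold changes of 0.97 (FDR = 0.039) and -0.95 (FDR = 0.045), and Os12g0113500 also passed without 0 h replicate 1 (FDR = 0.048). Os08g0441100 passed in the fit of only the 8 libraries (FDR = 0.048).

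MAP kinases phosphorylate WRKY transcription factors after wounding, and no change was detectable at 1 h in the 4 genes named from this branch. OsMPK3 (Os03g0285800) had 11.6, 18.3, 9.77 and 19.7 FPKM at 0 h and 18.2, 13.1, 16.5 and 16.2 FPKM at 1 h. OsWRKY53 (Os05g0343400) had 122, 205, 115 and 220 FPKM and then 209, 164, 170 and 215 FPKM. OsWRKY24 (Os01g0826400) had 12.9, 18.5, 9.22 and 36.1 FPKM and then 27.7, 13.5, 15.5 and 21.95 FPKM. In all of these the fed libraries lay inside the range of the controls.

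OsWRKY45 (Os05g0322900) had 58.1, 65.2, 55.7 and 125 FPKM at 0 h and 102, 75.9, 97.0 and 85.3 FPKM at 1 h. The 4 log2 fold changes were 0.15, 0.25, 0.16 and 0.32, with limma FDRs of 0.54 to 0.88, and the upper ends of their 95% intervals were 0.80, 0.77, 0.92 and 0.80. Mean rises of up to that size lie within these intervals. Among the controls, replicate 4 was the highest for all 4 genes and replicate 3 the lowest. Among the fed leaves, replicate 2 was the lowest for all 4.

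**Figure D4:**
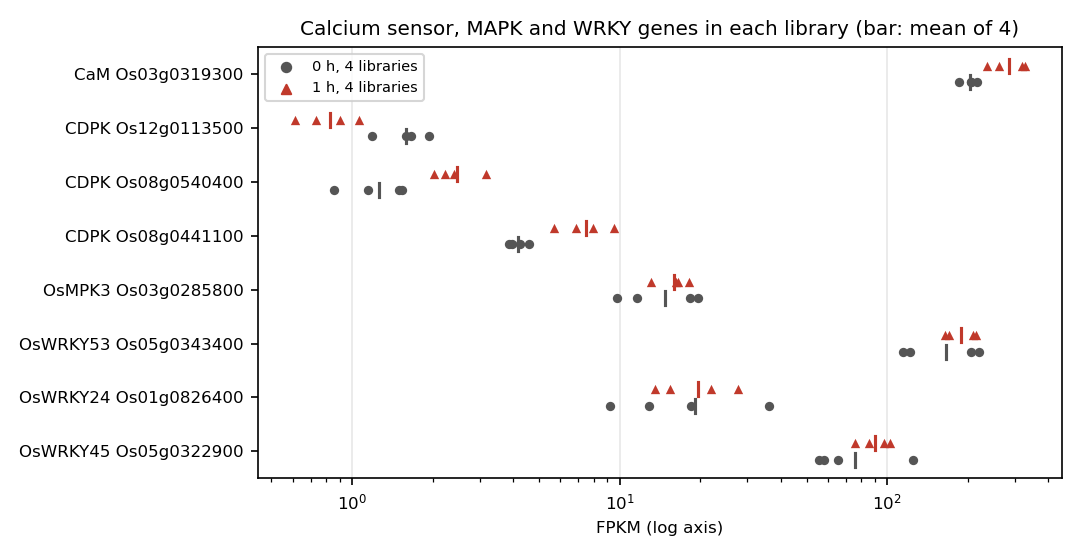
FPKM of the 4 calcium sensor genes and the 4 MAPK and WRKY genes in each 0 h library (grey circles) and each 1 h library (red triangles), with the mean of 4 as a bar, on a log axis. The groups are apart in the 4 calcium sensor genes, with the CDPK gene Os12g0113500 lower after feeding, and overlap in OsMPK3 and the WRKY genes.

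For all named genes, called at 1 h or not, later levels were set beside the 1 h level in the same fit. Of the 42 named genes, 14 were higher at 6 h than at 1 h (limma FDR under 0.05, beside 13.6% of all loci) and none was lower (4.37%). This count was added after the data were seen. The 14 include OPR Os08g0459600 and JAZ Os09g0439200, which had already risen at 1 h. JAR Os01g0221000 and CDPK Os12g0113500 are also among them. Their log2 fold changes against 0 h were -0.57 and -0.50 at 1 h, and 0.07 and -0.05 at 6 h. At 24 h, 16 were higher than at 1 h (12.4%) and 3 were lower (8.91%). The 6 h libraries had a general shift, since the median log2 fold change of all tested loci against 0 h was 0.11 at 6 h and 0.01 at 1 h. With median-of-ratios scaling, which takes this shift out, 10 named genes were higher at 6 h than at 1 h, and JAR Os05g0586200 differed by -0.38 and was lower (FDR = 0.0080). Without 1 h replicate 2 the count of higher genes was 8.

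None of the 4 ACX genes had passed at 1 h. All 4 were higher at 6 h than at 1 h, beside 13.6% of all loci. Their log2 fold changes were 0.34 to 0.76 (limma FDR = 9.1e-05 to 0.0085), and 0.21 to 0.64 with median-of-ratios scaling (FDR = 0.00025 to 0.024). KAT Os02g0817700 was higher by 0.73 (limma FDR = 9.2e-06) and MFP Os02g0274100 by 0.36 (limma FDR = 0.0089). The other MFP and KAT genes, Os05g0155000 and Os10g0457600, had differences of 0.16 (limma FDR = 0.26) and 0.47 (limma FDR = 0.098). Of the enzyme genes that had risen at 1 h, OPR Os08g0459600 was higher again at 6 h by 0.48 (limma FDR = 0.028, and 0.099 with median-of-ratios scaling), while AOC with 0.36 (limma FDR = 0.18) and OPCL with -0.05 (limma FDR = 0.83) did not pass. Whether these differences between 1 and 6 h differ from gene to gene was not tested.

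Of the 12 JAZ genes, 2 were higher at 6 h than at 1 h, beside 13.6% of all loci. Os09g0439200 went from 58.1 ± 11.9 FPKM (SD, n = 4) at 1 h to 145 ± 42.5 FPKM (SD, n = 4) at 6 h (log2 fold change 1.28, limma FDR = 0.013), and Os03g0180900 from 24.5 ± 9.21 FPKM (SD, n = 4) to 106 ± 70.9 FPKM (SD, n = 4) (1.80, limma FDR = 0.030). For the other 10 the difference did not pass. Their log2 fold changes ran from 0.05 for Os09g0401300 to 1.56 for Os03g0180800 (SE 0.80, limma FDR = 0.20). Os04g0395800 and Os10g0392400 also had large differences with wide errors, 1.33 (SE 0.64) and 1.06 (SE 0.50). Os07g0615200 was at 546 ± 73.2 FPKM (SD, n = 4) at 1 h and 658 ± 161 FPKM (SD, n = 4) at 6 h (log2 fold change 0.25, limma FDR = 0.37).

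The MAPK and WRKY genes differed from 1 h mostly at 24 h. OsWRKY53 was higher at 6 h than at 1 h by a log2 fold change of 0.83 (limma FDR = 0.030, and 0.057 with median-of-ratios scaling), and the other 3 differed by 0.06 to 0.67 without passing (limma FDR = 0.15 to 0.88). At 24 h all 4 were higher than at 1 h, by 1.26 for OsMPK3, 0.75 for OsWRKY53, 1.17 for OsWRKY24 and 0.81 for OsWRKY45 (limma FDR = 0.0083 to 0.043). Of all loci, 12.4% were higher at 24 h than at 1 h. The study had named these 4 genes as upregulated by feeding in the same series, so this count is a description. JAR Os01g0221000, whose lower level at 1 h had not passed the test (limma FDR = 0.079), was higher at 24 h than at 1 h by 1.63 (limma FDR = 3.6e-06). It was also higher at 24 h than at 0 h, by 1.06 (limma FDR = 0.00024). JAR Os05g0586200 was lower at 24 h than at 1 h (log2 fold change -0.28, limma FDR = 0.039).

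**Figure D5:**
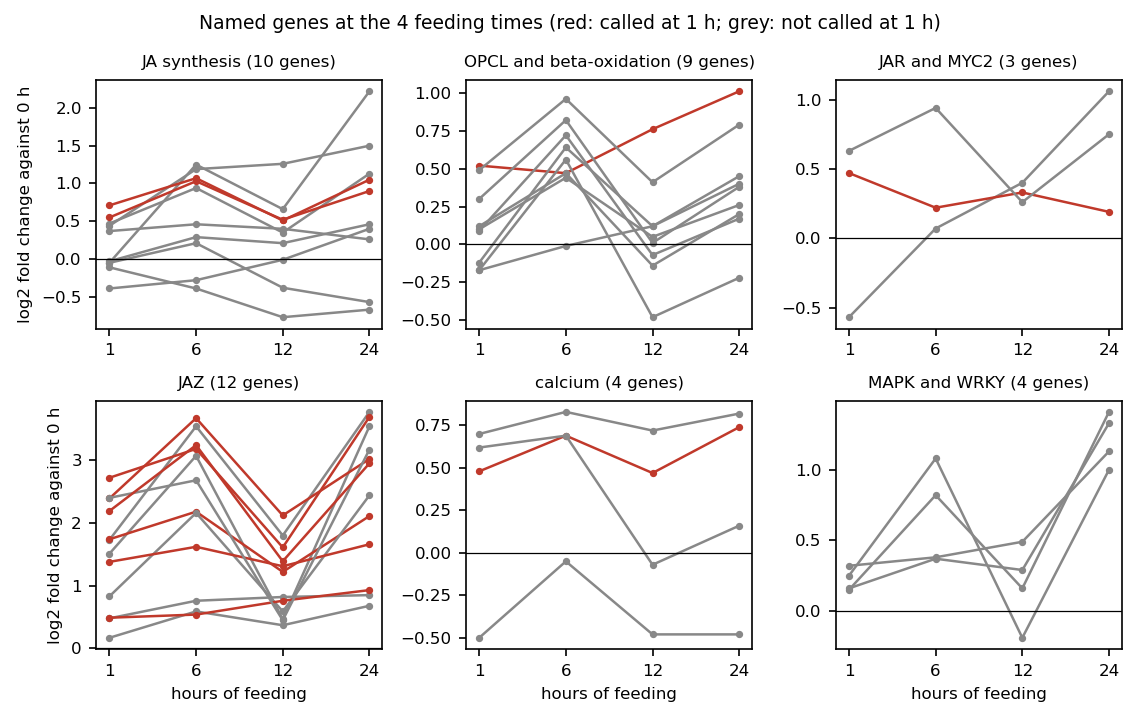
Log2 fold change against 0 h of the named genes against hours of feeding (horizontal axis), 1 panel per role, with red lines for the 11 genes called at 1 h and grey lines for the rest. All 4 comparisons share the 0 h libraries. Lines of the ACX, MFP and KAT genes rise between 1 and 6 h, and those of the MAPK and WRKY genes are highest at 24 h for each gene except OsWRKY53, which is highest at 6 h.

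Among loci without a name, the largest rise was that of Os03g0183500 on chromosome 3, with 0.160, 1.77, 0.464 and 2.06 FPKM at 0 h and 17.0, 33.1, 38.3 and 15.03 FPKM at 1 h. Its log2 fold change was 3.68 (SE 0.63, limma FDR = 0.0037), and the mean at 6 h was 42.6 ± 28.9 FPKM (SD, n = 4), with a log2 difference from 1 h of 0.43 (limma FDR = 0.69). Os04g0301500 followed, with 0.939, 18.3, 1.35 and 2.14 FPKM and then 36.3, 74.4, 55.5 and 37.7 FPKM (log2 fold change 3.61, SE 0.83, limma FDR = 0.023). In the latter, 0 h replicate 2 stood above the other controls, as it did for 6 of the JAZ genes.

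The deepest fall was that of Os06g0698748, from 9.20, 11.6, 8.47 and 7.49 FPKM to 1.42, 3.55, 4.77 and 0.439 FPKM (log2 fold change -1.71, SE 0.34, limma FDR = 0.0090). By 6 h it was back at 7.91 ± 2.19 FPKM (SD, n = 4), higher than at 1 h by a log2 fold change of 1.5 (limma FDR = 0.0063). Os05g0375400 fell from 8.0, 14.6, 7.23 and 9.84 FPKM to 1.58, 6.04, 2.80 and 1.93 FPKM (log2 fold change -1.49, SE 0.32, limma FDR = 0.015), and at 12 h it was above the controls, at 26.3 ± 9.67 FPKM (SD, n = 4; limma FDR = 0.011).

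The loci called at 1 h were followed as groups through the later times. After 1, 6, 12 and 24 h the 416 that rose had median log2 fold changes against 0 h of 0.61, 0.49, 0.37 and 0.43. For the 296 that fell they were -0.50, -0.07, -0.27 and -0.14, and over all loci 0.01, 0.11, -0.03 and 0.03. The loci were chosen at 1 h and every time is set against the same 0 h libraries, so these medians are descriptions. In the fed leaves the 416 rises were at a median of 0.63, 0.54, 0.62 and 0.61 above the 0 h mean in replicates 1 to 4, and the 296 falls at -0.56, -0.37, -0.46 and -0.59, so replicate 2 showed the smallest changes in both directions.

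At 6 h, 264 of the 416 rises were again called higher than 0 h, beside 21.5% of all loci, and 35 were called lower (5.48%). At 12 h it was 196 (6.46%) and 39 (9.81%), and at 24 h 243 (14.4%) and 31 (8.94%). Of the 296 falls, 74, 125 and 103 were called lower again at these times, and 36, 16 and 39 were called higher. The 1 h and 6 h libraries share no sample, and between them 117 of the 416 rises were called lower at 6 h and 40 higher, while 178 of the 296 falls were called higher and 8 lower, beside 13.6% of all loci higher and 4.37% lower. Because the loci were chosen for their 1 h values, these counts are descriptions too. Of the 12 JAZ genes, 12, 6 and 12 were called higher than the controls at these times.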

How the data were processed

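The 8 libraries of 0 and 1 h, with the other 12 for the estimate of spread, were analysed as deposited FPKM, which the authors had made from filtered paired-end reads aligned to IRGSP-1.0 with HISAT2 2.09 and counted per gene with featureCounts 1.5.0-p3. The authors tested with DESeq2, which was not used here. A pseudocount of 1 was added before log2. The 24058 identifiers that reached 0.5 FPKM in 4 or more of the 20 libraries were fitted together with limma-trend (limma 3.58.1, R 4.3.3), with 15 residual degrees of freedom and Benjamini-Hochberg adjustment over all of them, and the 20343 OS loci are reported. Tables and figures were made with Python 3.11.15, numpy 2.4.6, pandas 2.3.3 and matplotlib 3.10.9. A check of the test on simulated data used changes larger than most of those called at 1 h. It therefore does not cover most of the calls.

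Whole fragments were recovered for 35755 of 35755 identifiers above 0, within 0.01 fragments. Counting error adds to the spread of weakly expressed genes. Of the reference table's entries (assembly ASM3414082v1), only 1 carried an identifier of the files, and no name came from it. The libraries follow from their titles, but the comparison itself, the named genes, the lists and the alternatives were chosen with earlier results of these data known. Named genes are those the study pairs with an identifier, plus the 2 largest rises and 2 largest falls among called loci with a mean of at least 2 FPKM and groups that do not overlap. Further lists drawn up from general knowledge were not used, because neither the files nor the study name their identifiers. Gene sequences were not used here. Alternatives were a pseudocount of 0.1, no filter, a filter of 2 FPKM in 4 or more of the 8 libraries, the 8 libraries alone, a replicate block, median-of-ratios scaling, limma-voom on recovered fragments, and each of the 8 libraries left out.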

Additional observations from a re-analysis of the deposited data

Results flagged for a closer look

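Among 86 groups of 4 libraries (43 named genes at 0 and 1 h), 8 held a library far from the other 3 by Dixon's criterion, and chance flags about 1 group in 20. At 0 h replicate 4 was high for JAZ Os03g0180900 (12.4 FPKM), JAZ Os07g0615200 (263.5 FPKM) and OsWRKY45 (125.0 FPKM), and for AOS Os03g0767000 it was at 0.0 FPKM with 0 fragments. Replicate 2 of the controls was high for JAZ Os10g0391400 (10.9 FPKM). At 1 h, LOX Os02g0194700 was high in replicate 2 (300.9 FPKM), LOX Os03g0179900 low in replicate 4 (49.0 FPKM) and KAT Os02g0817700 low in replicate 3 (83.5 FPKM). Their cause was not tested.

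Levels at 6 h differed from those at 1 h for 14 named genes in the limma fit of all libraries (FDR under 0.05). The log2 differences were 0.32 for PLA Os01g0762000, 0.75 for PLA Os03g0708000, 0.48 for OPR Os08g0459600, 0.76, 0.63, 0.34 and 0.52 for ACX Os01g0159400, Os05g0163700, Os06g0103500 and Os06g0354500, 0.36 for MFP Os02g0274100, 0.73 for KAT Os02g0817700, 0.64 for JAR Os01g0221000, 1.80 and 1.28 for JAZ Os03g0180900 and Os09g0439200, 0.45 for CDPK Os12g0113500 and 0.83 for OsWRKY53. After median-of-ratios scaling PLA Os01g0762000, OPR Os08g0459600, CDPK Os12g0113500 and OsWRKY53 no longer passed.

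Between 24 and 1 h, 19 named genes differed in the same fit. The log2 differences were 0.49 and 1.07 for PLA Os01g0762000 and Os03g0708000, -0.56, 0.79 and 2.27 for LOX Os02g0194700, Os05g0304600 and Os12g0559200, -0.52 for OPR Os01g0369900, 0.49 for OPCL, 0.57 and 0.16 for ACX Os01g0159400 and Os06g0103500, 0.57 for MFP Os05g0155000, 1.63 and -0.28 for JAR Os01g0221000 and Os05g0586200, 2.04, 0.51 and 0.44 for JAZ Os03g0180900, Os08g0428400 and Os09g0401300, 1.26 for OsMPK3, 0.75 for OsWRKY53, 1.17 for OsWRKY24 and 0.81 for OsWRKY45.

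Outside the OS loci, 25 of 3715 tested identifiers were called at 1 h, 11 higher (0.296%) and 14 lower (0.377%).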

How the results depend on the processing

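The number of OS loci called higher at 1 h was 236 to 532 with each library left out in turn, and the number called lower 119 to 378, against 416 and 296. With only the 8 libraries fitted, 142 were lower. Both counts stayed within 1.5 times the main one under the pseudocount, filter, block, scaling and voom alternatives. Higher loci made up 58.4% of the calls, 58.0% with median-of-ratios scaling and 56.9% with limma-voom. The balance moved in other fits. With only the 8 libraries fitted 293 loci were higher and 142 lower, and without 0 h replicate 1 it was 271 and 262. Log2 fold changes of named genes near 0 changed sign when a library was left out, with no call on either side. Over these fits PLA Os01g0762000 ranged from -0.07 to 0.01, LOX Os12g0559200 from -0.20 to 0.06, OPR Os01g0369900 from -0.16 to 0.07, OsMPK3 from -0.02 to 0.29 and OsWRKY24 from -0.11 to 0.51. Replicate numbers at 0 and 1 h share no source in the labels, and deviations of same-numbered libraries correlated at only 0.008 to 0.085. With the replicate number as a block, 390 loci were higher and 265 lower, and among named genes LOX Os03g0179900 was gained (FDR = 0.044). Loci with few fragments, such as JAZ Os04g0395800, are limited by depth.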
